A study of Mus musculus with 6 samples.

Results

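H3K27ac at the genes of 5 naive pluripotency transcription factors, Tfcp2l1, Tbx3, Prdm14, Zfp42 and Gbx2, was analyzed in mouse embryonic stem cells (ESCs) with and without the auxin treatment that triggers degradation of OCT4. A peak was assigned to a gene when it overlapped the gene body or the 20 kb on either side of it (GENCODE vM21 annotation of GRCm38), and for Prdm14 when it lay anywhere in chr1:13055000-13147163. This gave 32 of the 31131 peaks of the data set, of which 11 lay at Tfcp2l1, 5 at Tbx3, 8 at Prdm14, 7 at Zfp42 and 1 at Gbx2. All 32 were among the 26457 peaks tested, those whose mean over the libraries of at least 1 condition reached 0.5 RPKM. RPKM scales the reads of a peak to its length and to the size of the library, so that levels are per length.

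O4AID ESCs are derived from the ZHBT line of strain 129SV and are Oct4-/- with the transgenes TetOFF Oct4, CAG Oct4AID and CAG Tir1. Their OCT4 is fused to an auxin-inducible degron (AID) and, like the plant receptor Tir1, is expressed constitutively from the CAG promoter rather than from the Oct4 locus, and doxycycline kept the wild-type transgene silent in every sample. The sources used here do not say whether the line is a single clone. All cells grew in N2B27 with PD03 (a MEK inhibitor), Chiron (a GSK3 inhibitor) and mLIF. The 3 uninduced immunoprecipitations (IPs) received no auxin, and the 3 IAA IPs came from cells given 500 μM indole-3-acetic acid (IAA), the auxin that triggers degradation, for 1.5 h. Neither OCT4 protein nor RNA was measured in the files used here, and the labels do not say whether the IPs came from separate cultures, so that the tests measure the spread between these IPs, which may be technical.

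Naive ESCs are held in place by a network of transcription factors that is kept active by LIF, which signals through STAT3, and by the inhibitors of MEK and GSK3. Tfcp2l1, a grainyhead family factor, and Gbx2, a homeobox factor, both act downstream of LIF and STAT3, and the T-box factor Tbx3 is another LIF-responsive factor that promotes self-renewal. Prdm14 is a PR-domain factor that represses DNA methyltransferases and FGF signaling, and Zfp42, which encodes the zinc finger protein REX1, is widely used as a marker of the naive state although ESCs can self-renew without it. H3K27ac, acetylation of lysine 27 of histone H3, is placed by p300 and CBP and marks active enhancers and promoters. OCT4 binds the octamer element, often beside SOX2 at a joint OCT-SOX element, and H3K27ac at ESC enhancers frequently lies where these factors bind.

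The sequences below show the promoters of Zfp42 and Tfcp2l1, whose start regions held motif matches and carried the largest fall of their gene. Motif and fall thus go together here by the choice of what is printed, and the Zfp42 start region also carried the smallest fall of that gene. The other sequences are the central 200 bases of the highest distal peak near an OCT4 site at Tfcp2l1, Tbx3 and Zfp42. Capitals mark matches on either strand to 7 motifs: the octamer ATGCAAAT, the junction of the OCT-SOX element GTNATGCAA, which overlaps the octamer by its ATGCAA, a SOX core ACAATGG, an ESRRB motif TCAAGGTCA, a KLF motif GGGCGTGG, a STAT motif TTCCNGGAA and a PRDM14 motif GGTCTCTAA. Promoter sequences are the 250 bases before the RefSeq start (GRCm38.p6), printed on the strand of the gene, and the other windows are on the plus strand of GRCm38. RefSeq entries were matched for 3 of the 5 genes, Tfcp2l1, Zfp42 and Gbx2.
Zfp42 promoter, chr8:43307010-43307259, minus strand: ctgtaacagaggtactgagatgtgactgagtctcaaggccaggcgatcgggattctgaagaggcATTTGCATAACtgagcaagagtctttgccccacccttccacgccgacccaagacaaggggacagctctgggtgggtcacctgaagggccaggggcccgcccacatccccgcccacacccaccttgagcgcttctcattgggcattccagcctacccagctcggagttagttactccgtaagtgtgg
Tfcp2l1 promoter, chr1:118627695-118627944, plus strand: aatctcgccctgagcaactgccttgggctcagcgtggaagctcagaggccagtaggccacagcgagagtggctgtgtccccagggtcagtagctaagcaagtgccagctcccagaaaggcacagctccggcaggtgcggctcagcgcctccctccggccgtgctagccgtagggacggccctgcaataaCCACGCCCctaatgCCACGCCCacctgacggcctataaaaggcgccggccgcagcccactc
Tfcp2l1 distal peak, chr1:118647470-118647669: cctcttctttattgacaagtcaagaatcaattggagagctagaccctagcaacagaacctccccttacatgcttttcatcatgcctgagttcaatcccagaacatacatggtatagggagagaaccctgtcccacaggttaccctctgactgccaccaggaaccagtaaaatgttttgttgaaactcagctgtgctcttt
Tbx3 distal peak, chr5:119656881-119657080: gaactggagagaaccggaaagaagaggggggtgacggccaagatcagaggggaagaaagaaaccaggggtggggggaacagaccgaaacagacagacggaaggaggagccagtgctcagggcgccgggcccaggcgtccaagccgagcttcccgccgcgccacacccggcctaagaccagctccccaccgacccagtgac
Zfp42 distal peak, chr8:43321723-43321922: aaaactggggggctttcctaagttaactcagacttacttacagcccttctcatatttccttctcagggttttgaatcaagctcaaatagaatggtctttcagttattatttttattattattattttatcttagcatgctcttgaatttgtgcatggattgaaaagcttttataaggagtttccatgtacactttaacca

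The capitals in the Zfp42 promoter are an octamer, 208 bases upstream of the GENCODE start, merged with the OCT-SOX junction that overlaps it. Of the 32851 RefSeq promoters of this length, 1.60% held the octamer and 0.624% the junction. This octamer lies between the pair of OCT4-marked peaks at the start of Zfp42, in a gap of 368 bases, 285 bases from the peak in the gene and 75 bases from the upstream peak. The Tfcp2l1 promoter held 2 KLF matches, 54 and 40 bases upstream of the start, and 4.79% of RefSeq promoters held at least 1. Soft-masked (repeat) sequence makes up 19.0% to 24.0% of the 3 distal windows. No match to the 7 motifs was found in the printed windows of the Tfcp2l1, Tbx3 and Zfp42 distal peaks or in the 250 bases of the Gbx2 promoter.

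Library sizes were 31634480 to 39547452 reads. The share of reads in peaks was 6.63% to 7.12% in the uninduced libraries and 4.05% to 5.15% in the IAA libraries, and the median of all tested peaks was 0.55 lower after IAA on the log2(RPKM + 0.1) scale. Because RPKM is relative to the whole library, a factor common to a library would shift all its peaks together. The share of reads in peaks is summed over these same peaks, so that it falls with them and is no separate measure of such a factor. Input and spike-in libraries were not used here, and the part of a common factor in the falls was not tested. For this reason each result is also given relative to the median peak, by subtracting the median of the tested peaks from each library. In a bulk assay a lower level in each cell and fewer cells with the mark cannot be told apart. Peaks lay within 1 kb of a start of all 6 of the naive ESC markers Pou5f1, Sox2, Nanog, Klf4, Esrrb and Zfp42, at up to 12.7 RPKM on average in the uninduced libraries. That highest value was at Pou5f1, where reads of the Oct4 transgenes may also map, and the next highest was 10.5 RPKM at Sox2. Zfp42 is itself among the 5 genes described here. The trophoblast list had 1 of 6 genes with such a peak (Tfap2c, 2.82 RPKM), the primitive endoderm list 1 of 5 (Gata6, 1.48 RPKM) and the list of primed or germ layer genes 2 of 7 (Sox1 and Pax6, at most 1.74 RPKM), and the other genes of these lists, Cdx2, Eomes, Gata4, Sox17, Fgf5 and Otx2 among them, had no peak at a start.

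H3K27ac was lower after IAA at every one of the 5 genes. Taken as the mean RPKM over the peaks of a gene, weighted by peak length, it was lower in all 3 IAA libraries than in all 3 uninduced libraries at each gene. The same held at each of the 15 other naive network genes with peaks, described further on. Taken singly, 71.2% of all tested peaks had all 3 IAA values below all 3 uninduced values, and the share over all genes is not given here. Tbx3 had the highest level in both conditions, and Prdm14 and Gbx2 had the lowest levels. The permutation test (exact, two-sided, over 20 ways of dividing the libraries) cannot go below p = 0.1 with 3 against 3, and it gave p = 0.1 for each gene.

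At Tbx3, the mean level was 7.34, 6.83 and 6.53 RPKM in uninduced replicates 1, 2 and 3 and 3.80, 3.23 and 2.84 RPKM in IAA replicates 1, 2 and 3. The means were 6.90 ± 0.408 and 3.29 ± 0.484 RPKM (SD, n = 3), a difference of -1.08 (SE 0.131) on the log2(RPKM) scale. At Tfcp2l1, the levels were 4.50, 4.36 and 4.16 RPKM in uninduced and 2.48, 2.37 and 1.90 RPKM in IAA libraries. The groups were well separated at both genes, and the lowest uninduced value of Tfcp2l1 was still above its highest IAA value by more than the SD of either group. The Tfcp2l1 means were 4.34 ± 0.174 and 2.25 ± 0.309 RPKM (SD, n = 3), a log2 difference of -0.95 (SE 0.124).

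At Zfp42, the levels were 4.12, 3.78 and 4.07 RPKM in uninduced libraries and 2.30, 2.13 and 1.82 RPKM in IAA libraries, a log2 difference of -0.95 (SE 0.108). Prdm14 was a weakly marked gene, with 2.16, 2.24 and 1.84 RPKM in uninduced and 1.16, 1.08 and 0.808 RPKM in IAA libraries, and its log2 difference of -1.05 (SE 0.181) was close to that of Tbx3. At Gbx2, whose only peak gives its value, the levels were 1.63, 2.14 and 1.79 RPKM in uninduced and 1.59, 0.892 and 0.685 RPKM in IAA libraries. IAA replicate 1 was just under the lowest uninduced library, so that the Gbx2 groups were barely apart, and the log2 difference of -0.90 had the largest error of the 5 (SE 0.377). Without IAA replicate 1 it was -1.24 and without IAA replicate 3 it was -0.63.

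**Figure D1:**
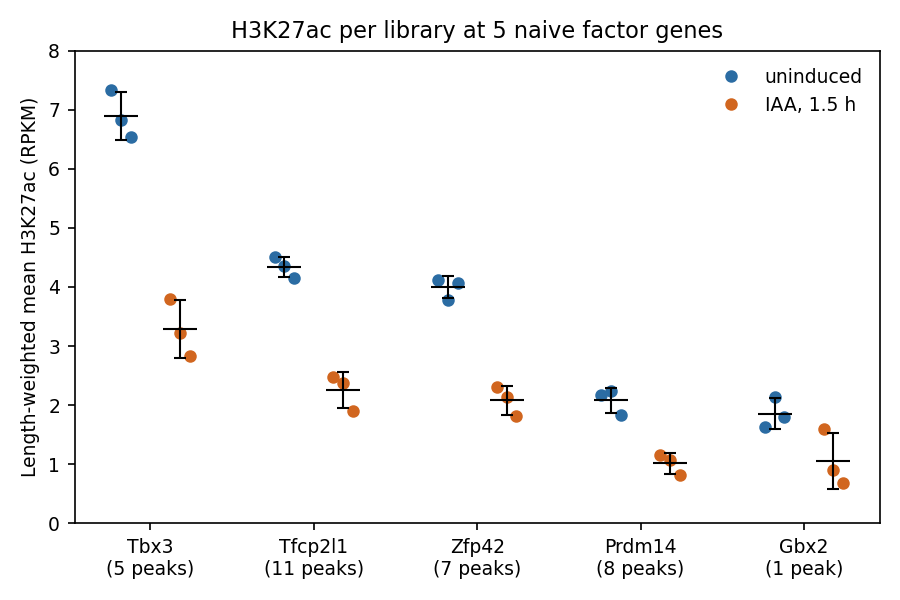
Length-weighted mean H3K27ac (RPKM) of the peaks of each of the 5 genes, with 1 point per library, uninduced in blue and IAA in orange, horizontal bars at the mean and vertical bars of 1 SD (n = 3). At each gene the 3 IAA libraries sit below the 3 uninduced libraries, by the least at Gbx2, where the highest IAA value is 1.59 and the lowest uninduced value 1.63 RPKM.

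In order of uninduced level per length, Tbx3 was followed by Tfcp2l1, Zfp42, Prdm14 and Gbx2. Neighbors in this order did not overlap in the uninduced libraries except Prdm14 and Gbx2. In the IAA libraries Tfcp2l1 and Zfp42 overlapped as well, whereas Tbx3 stayed above Tfcp2l1 and Zfp42 above Prdm14 in every library. Differences between genes in the size of the change were poorly resolved, with an SE of up to 0.311 for a pair (Zfp42 over Gbx2). Of the 10 pairs of genes, the within-library log2 ratio did not overlap between conditions in 1, Tfcp2l1 over Tbx3, which was 0.12 (SE 0.0555) higher after IAA (exact permutation p = 0.1, Benjamini-Hochberg adjusted p over the 10 pairs 0.9). The other 9 pairs changed by -0.18 to 0.10 with overlapping ratios, and their adjusted p was 0.9 too, which does not show that the genes changed alike.

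Relative to the median peak, 4 of the 5 genes were lower after IAA with no overlap between the groups (exact permutation p = 0.1 each, the smallest possible). The share of all genes lower in this way is not given here, so the count does not show how common it is. This was not particular to them. Of the naive network genes described further on, Sox2, Klf2, Klf4, Nr5a2, Nr0b1, Sall4, Dppa3, Tet1, Tet2 and Fgf4 were lower in this way as well. At Nanog, Klf5, Esrrb and Stat3 the groups overlapped. Pou5f1 went the other way without overlap, from a mean of 1.50 in uninduced to 1.68 in IAA libraries (exact permutation p = 0.1). The differences in log2(RPKM) were -0.50 at Tbx3, -0.47 at Prdm14, -0.37 at Tfcp2l1 and -0.36 at Zfp42. At Gbx2 the difference was -0.31 and the groups overlapped (exact permutation p = 0.4). The median level of the 5 genes in each library, relative to the median peak, was in all 6 libraries that of Zfp42, so that it adds nothing to the value of that gene (0.70 ± 0.0891 in uninduced and 0.34 ± 0.00926 in IAA libraries, SD, n = 3).

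Tested peak by peak with limma across all 26457 peaks, 30 of the 32 peaks of the 5 genes were lower after IAA at a Benjamini-Hochberg adjusted p under 0.05, 0 were higher and 2 did not pass. Of all tested peaks, 68.2% were called lower and 0.0605% higher. The peaks had been defined on the uninduced libraries alone, a choice that favors falls. The change was negative at all 32 peaks, from -1.56 to -0.44 on the log2(RPKM + 0.1) scale with a median of -0.95, beside a median of -0.55 over all tested peaks, whose middle 50% ran from -0.70 to -0.41. The IAA and uninduced values did not overlap at 30 of the 32 peaks, each with the IAA values lower, and such peaks made up 71.2% of all those tested. With each library centered on its median peak, the change was negative at 31 of the 32 peaks, against 49.1% of all peaks, and limma called 7 of the 32 lower, against 1.97% of all peaks, and 0 higher, against 0.544%. The 7 were 3 peaks of Tfcp2l1, 3 of Tbx3 and 1 of Zfp42. A peak of these genes held 8 to 483 reads in a library, with a median of 57.5, so that counting error is a sizable part of the spread at the weaker peaks.

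**Figure D2:**
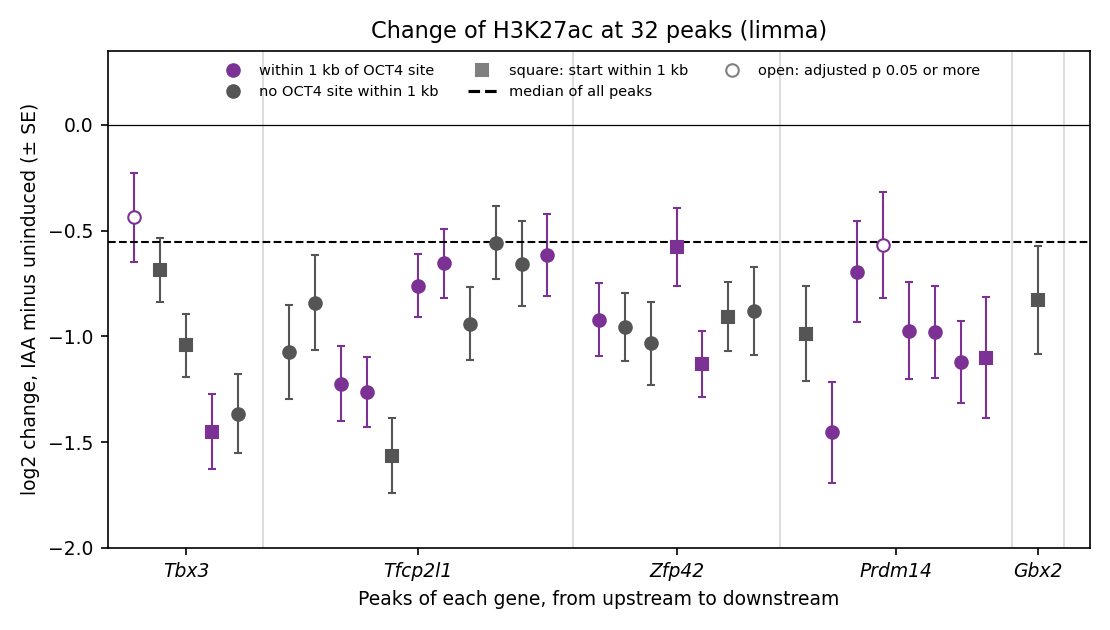
Change in H3K27ac (log2, IAA minus uninduced, limma estimate with bars of 1 SE) at each of the 32 peaks, ordered from upstream to downstream within each gene, purple for peaks within 1 kb of an OCT4 site, squares for peaks with a transcription start within 1 kb and open symbols for the 2 peaks that did not pass. All 32 estimates lie below 0 and most lie below the dashed line at the median of all tested peaks, -0.55.

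Tfcp2l1 (chr1:118627945-118685168, plus strand) had peaks from upstream of its start to beyond its end. All 11 passed, with a median change of -0.84. The promoter peak fell the most of the 11 and of all 32, and the gene's highest distal peak, in an intron, fell by much less. The peak at the promoter (chr1:118627624-118628589, over the start and the 5′ UTR), which is not within 1 kb of an OCT4 site and holds both KLF matches printed above, had 5.45, 6.35 and 4.76 RPKM in uninduced and 2.25, 1.67 and 1.52 RPKM in IAA libraries. Its IAA mean was 32.8% of its uninduced mean (limma log2 change -1.56, SE 0.177, adjusted p = 1.74e-05), and it stayed lower relative to the median peak (-1.01, limma adjusted p = 0.00298). The highest distal peak (chr1:118647134-118648004, intronic, OCT4-marked) had 7.41, 5.74 and 7.18 RPKM in uninduced and 4.65, 4.62 and 3.55 RPKM in IAA libraries. It kept 63.0% of its level (limma log2 change -0.66, SE 0.162, adjusted p = 0.00370), which relative to the median peak was a difference of -0.10 (limma adjusted p = 0.764).

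The smallest fall at Tfcp2l1 was at an exonic peak, chr1:118658119-118659256, with 3.27, 2.92 and 2.68 RPKM in uninduced and 1.99, 2.17 and 1.78 RPKM in IAA libraries (limma log2 change -0.56, SE 0.171, adjusted p = 0.0112). Its value relative to the median peak was near 0, and the call was lost without uninduced replicate 1 (limma adjusted p = 0.0690). A pair of OCT4-marked intergenic peaks just upstream of the promoter, named after their values were seen because they passed relative to the median peak, fell by 1.22 (chr1:118624457-118625084, adjusted p = 8.72e-05) and by 1.26 (chr1:118625743-118626527, adjusted p = 3.86e-05) in the limma fit. Relative to the median peak their changes were -0.67 and -0.71 (limma adjusted p = 0.0122 and 0.00920). The start of the gene and the sequence just before it thus held the 3 largest falls of the locus, and the 3 intronic peaks from 15.5 to 22.1 kb downstream, as high or higher before IAA, changed by -0.94 to -0.66. Both peaks farthest upstream overlap UTR sequence of the neighboring gene Clasp1 and changed by -1.08 and -0.84.

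Tbx3 (chr5:119670669-119684724, plus strand) had the highest peak of the 5 genes, and 4 of its 5 peaks passed. Both peaks in the downstream part of the gene fell the most, while the most distant peak had the smallest change of all 32. The OCT4-marked peaks of the locus were its highest peak and that distant peak. The highest peak (chr5:119680192-119681148) lies over an exon and over the start of a shorter Tbx3 transcript, 10 kb downstream of the gene's start, and is within 1 kb of an OCT4 site. It had 12.2, 11.1 and 10.3 RPKM in uninduced and 4.94, 4.55 and 2.90 RPKM in IAA libraries, so that 36.8% was left (limma log2 change -1.45, SE 0.176, adjusted p = 2.42e-05). The next peak (chr5:119682522-119683264, overlapping UTR sequence, not OCT4-marked) went from 4.57, 5.28 and 4.87 RPKM to 2.37, 1.98 and 1.32 RPKM (limma log2 change -1.37, SE 0.189, adjusted p = 6.19e-05). Both stayed lower relative to the median peak, by changes of -0.90 and -0.81 (limma adjusted p = 0.00298 and 0.00976).

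Around the annotated start of Tbx3, where the divergent noncoding gene Tbx3os1 also starts so that the mark cannot be given to either gene alone, there were 2 peaks. The peak just inside the gene (chr5:119671252-119673088) overlaps UTR sequence of Tbx3 and a start of Tbx3os1 but no Tbx3 start. It had 6.65, 6.46 and 6.08 RPKM in uninduced and 3.38, 2.85 and 2.94 RPKM in IAA libraries (limma log2 change -1.04, SE 0.150, adjusted p = 8.74e-05, and -0.49 relative to the median peak, adjusted p = 0.0223). The peak just upstream (chr5:119669591-119670620) had 9.04, 7.37 and 7.55 RPKM in uninduced and 5.58, 4.52 and 4.68 RPKM in IAA libraries (limma log2 change -0.69, SE 0.152, adjusted p = 0.00196, and -0.13 relative to the median peak, adjusted p = 0.628). Neither was within 1 kb of an OCT4 site. The most distant peak (chr5:119656690-119657271, in introns of the noncoding genes Gm16064 and Tbx3os1, at -13.7 kb from the start), whose center is printed above, had 2.002, 2.013 and 2.089 RPKM in uninduced and 1.92, 1.53 and 1.09 RPKM in IAA libraries. It did not pass (limma log2 change -0.44, SE 0.209, adjusted p = 0.0673) and its estimate was 0.12 relative to the median peak (adjusted p = 0.830), while without IAA replicate 1 it passed (limma adjusted p = 0.0171).

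Gbx2 (chr1:89927956-89931179, minus strand) had a single peak, chr1:89930670-89931260, over its start, its 5′ UTR and an exon of the overlapping gene D130058E05Rik. A start of D130058E05Rik also lies within 1 kb, so that the mark cannot be given to either gene alone. The peak is not within 1 kb of an OCT4 site. It was among the weakest of the 32, with 38, 40 and 41 reads in uninduced and 32, 19 and 14 reads in IAA libraries, and it was lower after IAA (limma log2 change -0.83, SE 0.255, adjusted p = 0.0113). Without IAA replicate 3 the log2 change was -0.59 and the call was lost (limma adjusted p = 0.0550), and relative to the median peak the change was -0.27 (limma adjusted p = 0.670).

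Prdm14 (chr1:13113457-13127163, minus strand) had 1 peak at its start and 7 in a cluster 32.8 to 67.4 kb downstream of the start, beyond the 3′ end of the gene, and all 7 of the cluster were OCT4-marked while the promoter peak was not. The peak of the cluster farthest from the gene (chr1:13059257-13060361) lies over a start and an exon of another gene, Gm37162, and is counted below as a promoter peak. No peak lay upstream of the gene in the window. Of the 8 peaks, 7 passed, with a median change of -0.98, but 0 passed relative to the median peak, where all 8 changes were negative with a median of -0.43. The promoter peak (chr1:13126219-13127266, over the start and 5′ UTR) had 2.15, 2.26 and 1.50 RPKM in uninduced and 1.04, 1.01 and 0.772 RPKM in IAA libraries (limma log2 change -0.99, SE 0.224, adjusted p = 0.00232). The highest peak of the cluster (chr1:13073707-13074208), in an intron of the gene Gm29283, had 3.13, 2.71 and 2.53 RPKM in uninduced and 0.995, 1.27 and 1.44 RPKM in IAA libraries (limma log2 change -1.12, SE 0.195, adjusted p = 0.000350). The median change of the 7 peaks of the cluster was -0.98, beside -0.99 for the promoter, and the difference was not tested.

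The largest change in the Prdm14 cluster was at chr1:13094100-13094533, with 2.57, 2.34 and 2.27 RPKM in uninduced and 1.08, 0.512 and 0.933 RPKM in IAA libraries (limma log2 change -1.45, SE 0.240, adjusted p = 0.000244). Relative to the median peak it was -0.90 with an adjusted p of 0.0733 from limma. At the peak with the smallest change, chr1:13085348-13085733, the libraries overlapped, with 1.71, 2.63 and 1.74 RPKM in uninduced and 0.914, 2.02 and 1.20 RPKM in IAA libraries (limma log2 change -0.57, SE 0.252, adjusted p = 0.0513). It passed without IAA replicate 2 (limma adjusted p = 0.0109) and with the replicate number as a block (limma adjusted p = 0.0195). The narrowest peak of the cluster, chr1:13093459-13093731, named after its values were seen, held 10 to 23 reads per library, and its call (limma log2 change -0.69, adjusted p = 0.0185) was lost when any of uninduced replicates 1 and 2 and IAA replicates 2 and 3 was left out (adjusted p = 0.0529, 0.0932, 0.0668 and 0.0700).

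Zfp42 (chr8:43295063-43306980, minus strand) had 7 peaks, all of which passed, with a median change of -0.92 and the narrowest range of changes of the 4 genes with several peaks, 0.553 against 0.885 to 1.01. There were 3 peaks within 1 kb of its start. The peak over the 5′ UTR (chr8:43306526-43306902, OCT4-marked) had 6.19, 5.46 and 5.84 RPKM in uninduced and 2.88, 2.65 and 2.30 RPKM in IAA libraries (limma log2 change -1.13, SE 0.155, adjusted p = 5.92e-05), and it was the only Zfp42 peak to pass relative to the median peak (-0.58, limma adjusted p = 0.0101). The upstream peak on the other side of the octamer (chr8:43307271-43307559, OCT4-marked) had nearly the same uninduced level, 6.06, 6.15 and 4.93 RPKM, but 4.48, 4.43 and 2.70 RPKM in IAA libraries (limma log2 change -0.58, SE 0.184, adjusted p = 0.0130). Only 368 bases separate them, and they were the largest and the smallest fall of the gene. Relative to the median peak the upstream peak was at -0.03 (limma adjusted p = 0.964), and its call was lost without uninduced replicate 1 or 2 (limma adjusted p = 0.0534 and 0.0502).

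The third peak at the Zfp42 start (chr8:43305365-43306169, intronic, not OCT4-marked) had 5.41, 4.99 and 5.40 RPKM in uninduced and 3.17, 2.93 and 2.26 RPKM in IAA libraries (limma log2 change -0.91, SE 0.162, adjusted p = 0.000448). The highest distal peak (chr8:43309255-43309753, at -2.52 kb from the start, not OCT4-marked) had 4.16, 3.81 and 4.30 RPKM in uninduced and 2.41, 2.28 and 1.33 RPKM in IAA libraries (limma log2 change -1.03, SE 0.196, adjusted p = 0.000691). The remaining 3 peaks of the gene, including the OCT4-marked peak at -14.8 kb whose center is printed above, changed by -0.95 to -0.88. Apart from the peak upstream of the octamer, the changes of the Zfp42 peaks at the start and away from it ran from -1.13 to -0.88.

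**Figure D3:**
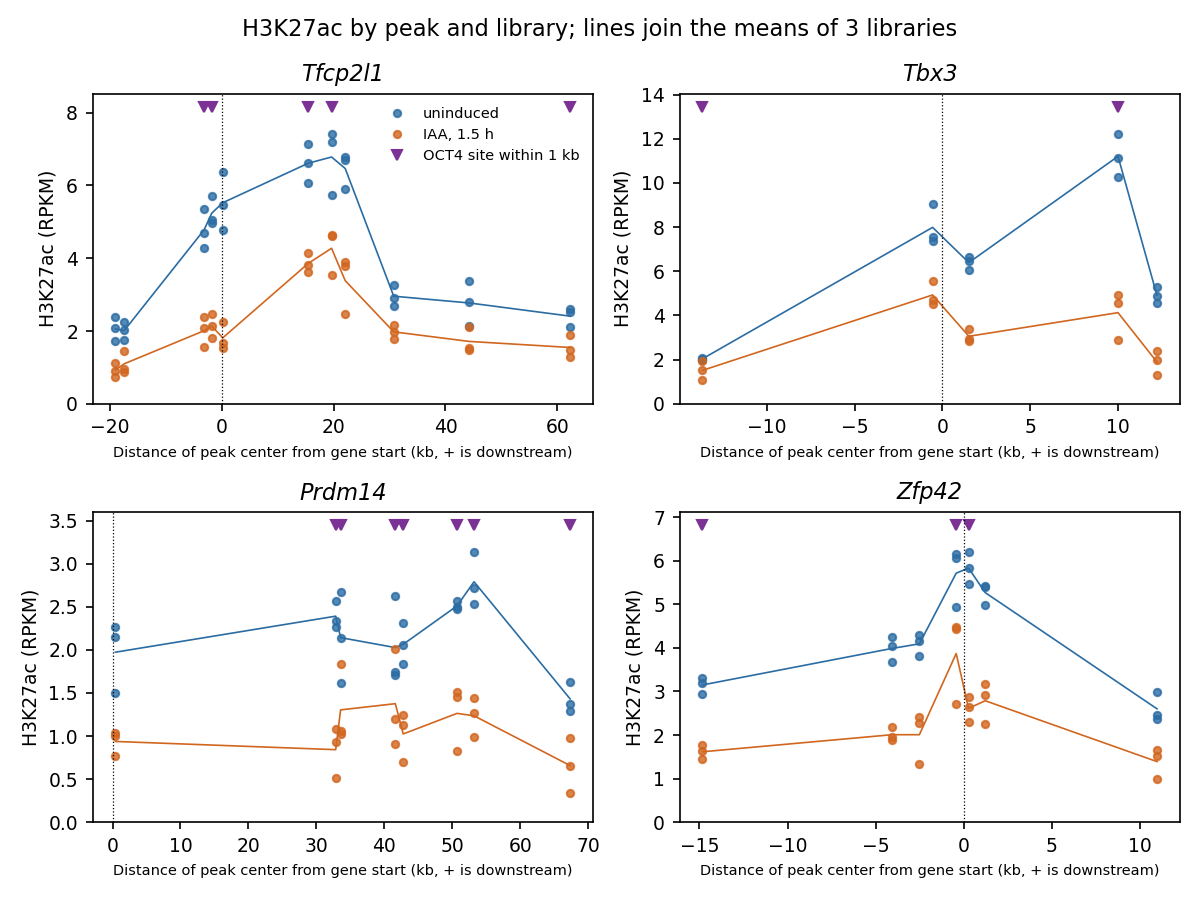
H3K27ac (RPKM) of each peak in the 6 libraries against the distance of the peak center from the gene start (kb, positive downstream), for the 4 genes with more than 1 peak, with lines through the means of the 3 libraries of each condition and triangles at peaks within 1 kb of an OCT4 site. At Tfcp2l1 the lines are farthest apart at the promoter peak (means of 5.52 and 1.81 RPKM), at Tbx3 at the peak 10 kb downstream, and at Zfp42 they come closest at the peak just upstream of the start relative to its height.

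Within 1 kb of a peak of published OCT4 ChIP-seq from another mouse ES cell line, the mark the authors added to the table, lay 17 of the 32 peaks (53.1%), beside 16.3% of all peaks and 40.0% of the 80 peaks of the naive network list described further on. Of the 17, 7 came from Prdm14, whose window was extended to take in the cluster downstream of the gene, 5 from Tfcp2l1, 3 from Zfp42 and 2 from Tbx3. Of the 17, 15 were lower in limma (85.2% of all tested peaks near OCT4 sites were), with a median change of -0.97 beside -0.71 for all such peaks. Of the other 15, all 15 were lower (64.6% of all tested peaks away from OCT4 sites were), with a median of -0.94 beside -0.52. These are medians, single OCT4-marked peaks ranged from -1.45 to -0.44, and the difference between the groups of peaks was not tested. As a within-library difference of medians on the log2(RPKM + 0.1) scale, OCT4-marked minus other peaks of the 5 genes was -0.49 ± 0.138 in uninduced and -0.10 ± 0.0836 in IAA libraries (SD, n = 3), a change of 0.39 that was 0.0171 when means over peaks were used in place of medians. Over all tested peaks the same difference of medians went from 0.09 ± 0.0488 to -0.11 ± 0.0472.

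By position, 10 of the 32 peaks had a transcription start of any gene within 1 kb and 22 were distal. All 10 promoter peaks were lower in limma (70.0% of all tested promoter peaks were), with a median change of -1.02 beside -0.53 over all tested promoter peaks. Of the 22 distal peaks, 20 were lower (66.4% of all tested distal peaks were), with a median of -0.93 beside -0.58. Promoter minus distal peaks of the 5 genes was 0.94 ± 0.112 in uninduced and 0.69 ± 0.0421 in IAA libraries, a change of -0.25 that was -0.12 with means in place of medians. For all peaks the difference went from 0.37 ± 0.0555 to 0.40 ± 0.0762, and the conditions overlapped.

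The motifs were searched in 1000-base windows around the center of each peak, and most windows of the 5 genes held none of them. The octamer was found in 2 of the 32 windows, both holding the same match in the Zfp42 promoter, beside 4.91% of the windows of all tested peaks and 10.3% of those near OCT4 sites. The OCT-SOX junction was in 3 windows (1.75% of all), those 2 and that of the peak in Clasp1 farthest upstream of Tfcp2l1. The SOX core was in 2 (11.5%), the ESRRB motif in 1 (3.60%), the KLF motif in the windows of the Tfcp2l1 and Prdm14 promoter peaks (10.2%), the STAT motif in 2 (3.99%) and the PRDM14 motif in 0 (0.669%). Thus 15 of the 17 OCT4-marked windows did not hold these exact octamer letters, which says nothing on whether OCT4 binds there. The median GC content was 51.8% for the 32 peaks and 52.9% for all tested peaks.

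Other genes of the naive network were taken from a list of 16, Pou5f1, Sox2, Nanog, Klf2, Klf4, Klf5, Esrrb, Nr5a2, Nr0b1, Stat3, Sall4, Tcl1, Dppa3, Tet1, Tet2 and Fgf4, of which Tcl1 had no peak within 20 kb. The other 15 had 80 peaks, of which limma called 73 lower (68.2% of all tested peaks were), 0 higher (0.0605%) and 7 neither. Their median change was -0.83. With libraries centered on the median peak, 25 were lower (1.97% of all tested peaks were) and 1 higher (0.544%). By length-weighted mean, all 15 were lower in all 3 IAA libraries, with a median of the log2 differences of -0.88 over the 15 genes beside -0.95 over the 5, and relative to the median peak the difference was below 0 at 14 of the 15, with a median of -0.30 beside -0.37. The largest differences were at Nr0b1, an orphan nuclear receptor (DAX1), at -1.94, and at Sall4, a zinc finger partner of OCT4, at -1.39. The smallest were at Pou5f1, the OCT4 gene itself, at -0.40 and at Klf5, a Krüppel-like factor, at -0.61, and relative to the median peak these were 0.18 and -0.03. Reads of the Oct4 transgenes may map to Pou5f1, so its value may not be that of the endogenous locus alone, which was not tested. The place of Klf5 depended on the window, since with 50 kb on either side its difference was -0.97. The 5 genes lay between these extremes on both scales.

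**Figure D4:**
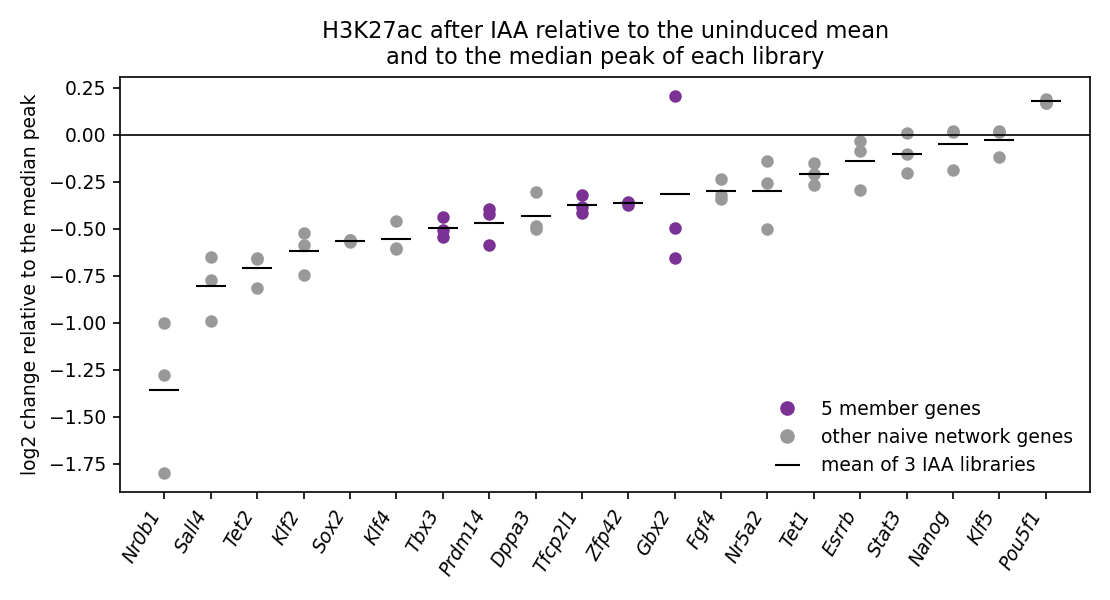
Length-weighted mean H3K27ac after IAA, on the log2 scale, relative to the uninduced mean of the gene and to the median peak of each library, with 1 point for each of the 3 IAA libraries and a bar at their mean, for the 5 genes (purple) and the 15 other naive network genes with peaks (gray). Tbx3, Prdm14, Tfcp2l1 and Zfp42 sit between -0.50 and -0.36 with all 3 points below 0, Gbx2 spreads across 0, Nr0b1 is lowest at -1.36 and Pou5f1 highest at 0.18.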

How the data were processed

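H3K27ac ChIP-seq libraries of 3 uninduced and 3 IAA IPs were grouped by their labels. The authors aligned reads to GRCm38 (mm10) with Bowtie2 2.3.4.3 (version from the submitters' processing notes), discarded duplicate reads (SAMtools rmdup), pooled the uninduced IPs for peak calling (MACS2) and deposited 1 RPKM value from DiffBind per peak and library. Peaks were thus defined in uninduced cells, and gains elsewhere could not be seen. The same uninduced libraries were the reference of every comparison, so that the choice of peaks favors falls after IAA. How much this adds to the falls was not tested. The sources give the antibody as ab4729 or ab4792. The authors' pooled columns hold the mean RPKM of each condition and served for the threshold only. Peak coordinates are as deposited, and every per-sample column was used.

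Peaks were tested on log2(RPKM + 0.1), which understates changes of low peaks, with limma 3.58.1 in R 4.3.3 (lmFit, eBayes with trend and robust) over the 26457 peaks that reached 0.5 RPKM in a pooled column. Benjamini-Hochberg adjusted p-values under 0.05 were called. The script was tested on simulated data. Length-weighted gene means were compared on log2(RPKM) by exact two-sided permutation tests. RPKM values were whole multiples of 1 read (100%, within 0.001 reads), which gave library sizes and reads per peak for description, and no count model was used. Distances and features are from GENCODE vM21. Named peaks are those within 1 kb of a start of the gene, the highest distal peak and the largest and smallest change of each gene, plus the 2 largest and 2 smallest differences of the network list, with exceptions said where they occur. The genes, lists, motifs and rule were chosen with earlier results of these data known. Replicate libraries differed by more than sampling noise (chi-square per peak 1.02 to 1.64). Alternatives were the pseudocount, threshold, scaling, window, weighting, limma settings, replicate block and leaving out each library. The sequence of the highest Prdm14 distal peak is not reported here.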

Additional observations from a re-analysis of the deposited data

How the results depend on the processing

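With each library centered on its median peak, 7 of the 32 peaks were called lower in place of 30 (1.97% of all tested peaks in place of 68.2%), and with quantile normalization 7. For quantile normalization and the other alternatives below, the share of all tested peaks called is not given, so those counts have no background beside them. For the naive network list these counts were 25 and 23 in place of 73. Centering moved the log2 differences to -0.37 at Tfcp2l1, -0.50 at Tbx3, -0.47 at Prdm14, -0.36 at Zfp42, -0.31 at Gbx2 and -0.36 for the per-library median of the 5 genes (that of Zfp42), and turned that of Pou5f1 to 0.18. The peak of Tbx3 from 119656690 was at 0.12 under both scalings, and under quantile normalization the peaks of Tfcp2l1 from 118658119 and of Prdm14 from 13085348 were at 0.0162 and 0.0209. Both scalings remove a change common to all peaks, and whether that change is technical was not tested.

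OCT4-marked minus other peaks changed by 0.0171 with means over peaks and by 0.0840 with windows of 50 kb, in place of 0.39. Promoter minus distal peaks changed by -0.12 with means and by -0.45 when promoter peaks had to overlap a start, in place of -0.25. Both rest on medians of few peaks. The number of gene pairs without overlap was 1, was 2 with unweighted means, 0 with windows of 50 kb and 1 to 4 when a library was left out (4 without uninduced replicate 3, 2 without IAA replicate 1). Octamer windows were 2 at 1000 bases and 0 at 300 bases. The alternatives for gene pairs, the motif window and single network genes were chosen after seeing the data.

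Pseudocounts of 0.01 and 1, no threshold, a threshold of 1 RPKM and plain limma changed no call of the 32 peaks except that of the Prdm14 peak from 13085348, which passed with a pseudocount of 1 (limma adjusted p = 0.0447) and a threshold of 1 RPKM (0.0488). Leaving out 1 library gave 26 (without uninduced replicate 1) to 31 peaks lower (64 to 72 on the network list). Calls so lost and not named above were those of the Tfcp2l1 peaks from 118672026 (limma adjusted p = 0.0786 without uninduced replicate 1) and 118689808 (0.0517 without uninduced replicate 2). Same-numbered libraries did not deviate together peak by peak once each library was centered on its median (correlations of deviations -0.01, -0.09 and -0.06). This check cannot see a factor shared by whole libraries. The share of reads in peaks fell from replicate 1 to replicate 3 in both groups, so whether the numbers pair the samples was not settled. The replicate block gave 31 peaks lower, and 75 on the network list. The 8 to 483 reads per peak and 3 libraries a group limit what could be seen at weak peaks such as that of Gbx2.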
